A study of Mus musculus with 6 samples.

Results

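The mitochondrial ribosome was followed through its nuclear genes in oocytes that carried a truncated *Bnc1* gene. Members were all genes whose symbol starts with Mrpl or Mrps followed by a digit, which gave 78 of the 17577 genes listed, 49 Mrpl and 29 Mrps. Levels were taken from 6 oocyte libraries of 12-week-old C57BL/6 J mice, 3 from Bnc1tr/tr animals and 3 from wild-type (WT) animals, and the study compared littermates. Bnc1tr/tr mice are homozygous for a small deletion in exon 4 of *Bnc1*, which encodes the zinc-finger protein basonuclin 1, and the deletion shifts the reading frame to a premature stop codon. The allele is present in every cell of the animal, so the oocytes had also grown in mutant ovaries. Oocytes were at the germinal vesicle stage and came from antral follicles after a gonadotropin injection, and each cDNA was made from a single oocyte. The labels do not say whether libraries of a group came from separate animals, so the p-values below measure the spread between libraries.

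The mitochondrial ribosome translates the few messenger RNAs of the mitochondrial genome, all of which encode subunits of the respiratory chain and ATP synthase. Its RNAs come from mitochondrial DNA, whereas its proteins are encoded in the nucleus, made in the cytosol and imported. The small subunit binds and decodes the messenger RNA, and the large subunit joins the amino acids. Some proteins of each subunit have a counterpart in bacterial ribosomes and others are found only in mitochondria. Oocytes hold very many mitochondria, which the embryo inherits from them.

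The symbols match the place of the proteins with 3 exceptions known from the structure of the ribosome. The products of *Mrps30* and *Mrps18a* sit in the large subunit, and that of *Mrps36* belongs to the oxoglutarate dehydrogenase complex. Of the 78 genes, 46 encode a protein with a bacterial counterpart, 29 a protein specific to mitochondria, and the remaining 3 are these exceptions.

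*Bnc1* was examined first in all libraries. Its level was 9.04, 6.51 and 5.83 FPKM (mapped fragments scaled to transcript length in kilobases and to each M, or mega, of fragments) in Bnc1tr/tr replicates 1 to 3, against 13.2, 12.5 and 16.2 FPKM in the WT replicates. The groups did not overlap and the log2 fold change was -0.89 (SE 0.20, limma adjusted p = 0.0090). Estimated depth was 13.3 to 21.4 M fragments per library, at which 3 fragments on 1 kb of transcript equal 0.140 to 0.226 FPKM. All 14 oocyte markers passed the filter on low values, with summed levels of 9034 to 10035 FPKM in Bnc1tr/tr and 7386 to 12104 FPKM in WT. By the rule for called genes given below, 2 of them rose and 2 fell. Over all tested genes 24.1% rose and 7.68% fell by that rule. The 5 surface epithelium markers listed summed to 12.3 to 37.9 FPKM in Bnc1tr/tr and 1.67 to 3.17 FPKM in WT, with *Krt18* at 0 in every WT library, and all 4 of them that were tested rose. Theca and stroma markers summed to 11.3 to 14.6 against 2.80 to 4.04 FPKM, and 2 of the 2 tested rose, with *Col1a1* at or near 0 in every library. Granulosa markers summed to 43.3 to 60.5 against 22.9 to 40.1 FPKM, with *Foxl2* and *Amhr2* at or near 0 in every library, and 2 of the 5 tested rose. The lowest log2 fold change among those 5 was -1.11, which was not called. Immune and blood markers summed to 60.3 to 144 against 66.2 to 97.1 FPKM and endothelial markers to 5.38 to 8.10 against 10.1 to 11.7 FPKM. Of the immune and blood markers 0 of 6 tested were called, and 1 of 2 endothelial markers tested fell. The part of other cells in the results below was not tested.

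Mitoribosomal protein genes were abundant in these oocytes. The median member stood at 90.6 FPKM in WT, against 8.62 FPKM for all genes tested, and at 72.7 against 10.7 FPKM in Bnc1tr/tr. All 78 were above 0 in all 6 libraries. In WT, 36 members reached 100 FPKM (22 Mrpl and 14 Mrps), 10 reached 300 FPKM and 3 were under 10 FPKM. The 10 highest members held 49.1% of the summed WT level. The plot of all members by library shows that this order of levels was shared by both genotypes, with a Pearson correlation of 0.98 between the log2 mean levels across the 78 genes, which are not independent replicates. Neighbours in the WT order could rarely be told apart: for 73 of the 77 neighbouring pairs the ranges of the WT libraries overlapped. Members are short, with a median transcript length of 1052 bases against 1945 bases for the tested genes, and the level was weakly related to length within the group (Pearson r = -0.26, Spearman rho = -0.26 over 78 genes, a description).

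**Figure D1:**
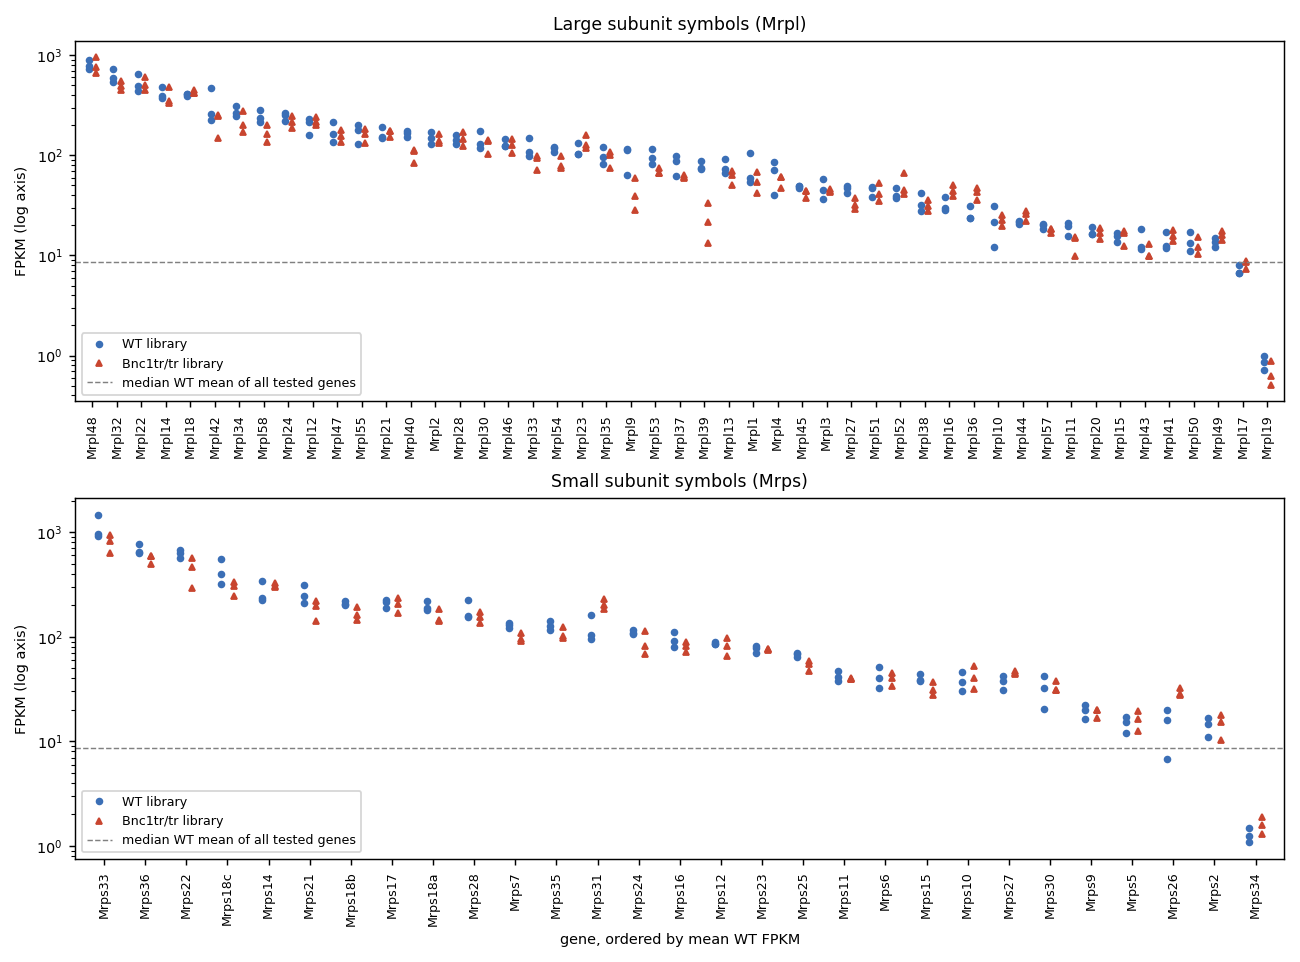
FPKM on a log axis of each large-subunit (top) and small-subunit (bottom) symbol in the 3 WT libraries (circles) and the 3 Bnc1tr/tr libraries (triangles), ordered by the WT mean. Levels run from about 1 FPKM for *Mrpl19* and *Mrps34* to over 1000 FPKM for *Mrps33* in WT, nearly all members lie above the dashed median of all tested genes, and *Mrpl39*, *Mrpl9*, *Mrpl40*, *Mrps31* and *Mrps26* are among those whose triangles stand clear of the circles.

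The most abundant member was *Mrps33*, a small-subunit protein specific to mitochondria. It measured 912, 952 and 1469.8 FPKM in WT replicates 1 to 3 and 633, 946 and 826 FPKM in Bnc1tr/tr. The groups overlapped, with a log2 fold change of -0.46 (SE 0.24, limma adjusted p = 0.18). *Mrps36* was at 688 ± 78.3 FPKM in WT and 559.8 ± 55.3 FPKM in Bnc1tr/tr (SD, n = 3 each), and its groups did not overlap although it was not called (log2 fold change -0.30, SE 0.17, adjusted p = 0.22). *Mrps22*, a mitochondria-specific protein of the small subunit, was at 564, 627 and 669 FPKM in WT and 296, 566 and 461 FPKM in Bnc1tr/tr. Its log2 fold change of -0.54 (SE 0.24) did not pass the test (adjusted p = 0.12), and Bnc1tr/tr replicate 1 lay far below the other libraries. After upper-quartile scaling *Mrps36* and *Mrps22* were called lower.

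On the large-subunit side the order was led by *Mrpl48*, *Mrpl32* and *Mrpl22*. *Mrpl48* was at 797 ± 83.6 FPKM in WT and 793 ± 152 FPKM in Bnc1tr/tr (SD, n = 3 each), which put its log2 fold change at -0.02 (SE 0.19, 95% interval -0.45 to 0.41). *Mrpl22*, a protein near the exit of the peptide tunnel, was at 528 ± 111 and 520.0 ± 78.5 FPKM, a log2 fold change of -0.01 (SE 0.20). *Mrpl32* was at 619 ± 102 and 497 ± 57.4 FPKM, with overlapping groups and a log2 fold change of -0.31 (SE 0.18, limma adjusted p = 0.23).

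The least abundant members were *Mrpl17*, *Mrps34* and *Mrpl19*. *Mrpl17* was at 7.14 ± 0.831 FPKM in WT and 8.17 ± 0.808 FPKM in Bnc1tr/tr. *Mrps34* was at 1.49, 1.23 and 1.08 FPKM in WT and 1.87, 1.58 and 1.29 FPKM in Bnc1tr/tr, and *Mrps33* exceeded it 877-fold in WT. *Mrpl19* was at 0.86, 0.72 and 0.98 FPKM in WT and 0.89, 0.62 and 0.51 FPKM in Bnc1tr/tr and was the only member below the mean of 1 FPKM required for the test. Both low levels are uncertain. Transcripts of other genes held 73.8% of the 31-base words of *Mrps34* and 37.9% of those of *Mrpl19*, and the exons of neighbouring genes covered 77.8% and 36.0% of their exonic bases. The same holds for *Mrpl53* and *Mrps25*, with 84.4% and 68.9% of shared words, and 29 of the 78 members shared over 10% of their words.

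With values as deposited, few of these genes were called between the genotypes. A gene was called changed at a Benjamini-Hochberg adjusted p under 0.05 by limma and an absolute log2 fold change, Bnc1tr/tr over WT, above 0.5. Of the 77 members tested, 6 (7.79%) were called, against 31.8% of all 10560 genes tested. The 3 that rose stood against a background of 24.1% of genes called higher, and the 3 that fell against 7.68% called lower. *Mrpl39*, *Mrpl9* and *Mrpl40* fell, and *Mrpl36*, *Mrps31* and *Mrps26* rose. At an unadjusted p under 0.05 by limma there were 13 members, 4 higher and 9 lower. Of all 10560 genes tested, 3229 were higher and 1296 lower at this threshold. The count depended on scaling. It was 19 of 77 (24.7%, against 34.4% of all genes) after upper-quartile scaling, 14 (18.2%, against 33.0%) after median-ratio scaling and 8 (10.4%, against 32.9%) after quantile normalization. Without Bnc1tr/tr replicate 1 or 3, or WT replicate 1 or 2, the 6 calls became 3, 2, 3 and 2. The share of all genes called was then 23.0%, 24.7%, 28.1% and 22.5%. The groups did not overlap for 7 members that were higher and 15 that were lower in Bnc1tr/tr, against 32.7% and 14.1% of all tested genes (46.8% in either direction).

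Changes were also small on the deposited scale. There, 13.0% of the tested members had an absolute log2 fold change over 0.5, against 40.5% of all tested genes, and 67 lay within 0.5 of 0. This contrast was mostly lost after upper-quartile (39.0% of members against 43.1% of all genes) and median-ratio scaling (37.7% against 42.1%), and it was 16.9% against 41.2% after quantile normalization. Precision was alike, with a median SE of 0.19 for members and 0.20 for all genes. For 66 of the 77 the whole 95% interval lay within 1 of 0, so a 2-fold change was outside the interval. Fewer of the more abundant genes were called, and the part of abundance in the contrast with other genes was not tested. Among genes with a mean of 30 to 100 FPKM, 26.9% of all genes and 3 of 28 members were called. Between 100 and 300 FPKM this was 21.2% of all genes and 2 of 24 members, and between 10 and 30 FPKM 32.7% and 1 of 14. From 300 FPKM upwards 14.4% of all genes and 0 of 9 members were called by limma, and none of those 9 had an unadjusted p under 0.05.

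**Figure D2:**
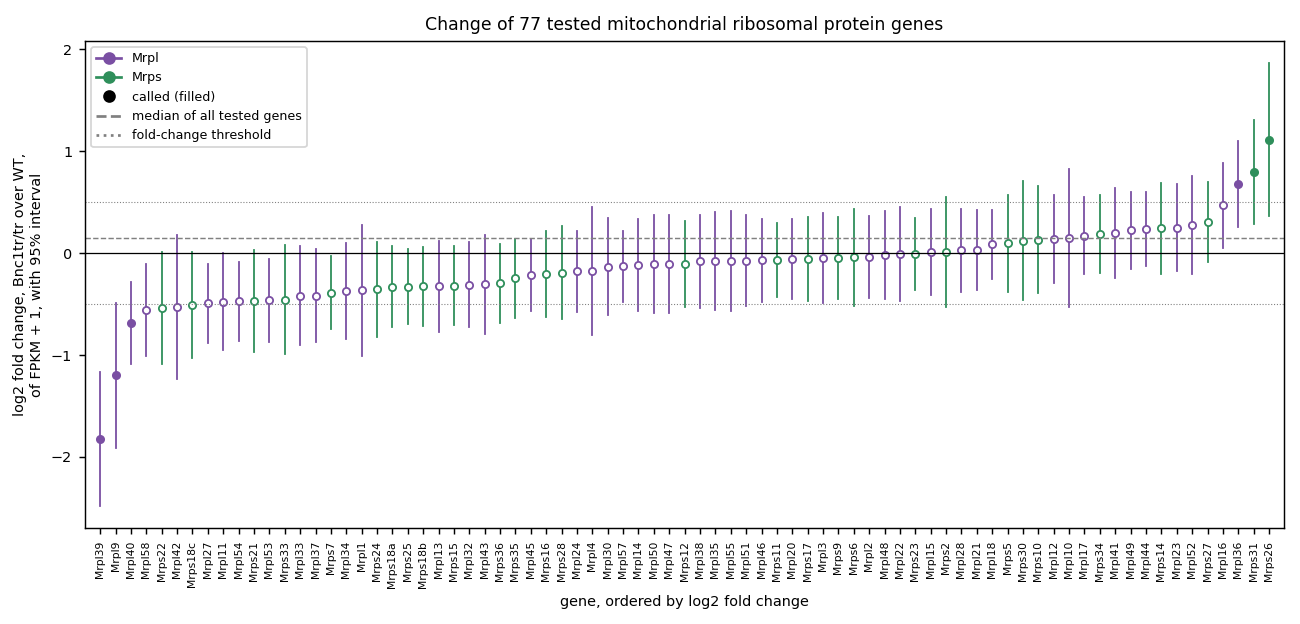
Log2 fold change (Bnc1tr/tr over WT, of FPKM + 1) with its 95% interval for the 77 tested members in order of size, purple for Mrpl and green for Mrps, filled where called. Most points lie between 0 and -0.5, below the dashed median of all tested genes at 0.15, and the 6 called members stand at both ends.

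As a group the members had a median log2 fold change slightly below 0, and below that of all genes. It was -0.11, against 0.15 for all tested genes, a difference of -0.25. Below 0 were 54 of the 77, and 63 were below the median of all genes. Of all 10560 tested genes 4185 were below 0. In both comparison lists described below, most genes also lay below the median of all genes. Of 80 respiratory chain genes 55 were below 0 and 68 below the median of all genes. Of 80 cytosolic ribosomal protein genes these were 44 and 61. The members' median was -0.18 without Bnc1tr/tr replicate 2, -0.07 without Bnc1tr/tr replicate 3 and -0.05 with a correction for transcript length. Among genes of like abundance the difference between the medians was smaller in most ranges, at -0.14 for 10 to 30 FPKM, -0.16 for 30 to 100 FPKM and -0.09 for 100 to 300 FPKM, and -0.25 from 300 FPKM upwards. The number of genes above 0 was 15258 to 15736 in the Bnc1tr/tr libraries and 13896 to 14576 in WT, and its part in the scalings was not tested. Which members were called, and in which direction most calls lay, depended on how the libraries were scaled. None of the 6 members called on the deposited values changed direction, however. Values as deposited gave 3 higher and 3 lower calls. Upper-quartile scaling gave 0 higher and 19 lower, so that 24.7% of members were called lower, against 17.2% of all genes. Median-ratio scaling gave 1 higher and 13 lower (16.9% lower, against 14.7%), and quantile normalization 2 and 6 (7.79% lower, against 17.5%). These scalings moved the median of all genes to -0.10, -0.05 and -0.10. The median of the members was then -0.37, -0.32 and -0.23, below that of all genes in each of the 3. After quantile normalization the respiratory chain and cytosolic ribosomal medians were -0.08 and -0.03, above that of all genes.

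Large and small subunit genes were then compared, since both subunits are needed in equal number. Among Mrpl genes 4 of 48 tested (8.33%) were called, 1 higher and 3 lower. Of all tested genes 31.8% were called, 24.1% higher and 7.68% lower. Among Mrps genes 2 of 29 (6.90%) were called, both higher, and 0 were lower by limma, with 1 lower at an unadjusted p under 0.05. Scaling turned this direction. After upper-quartile scaling 10 of 29 Mrps genes (34.5%) were called, all lower, against 34.4% of all genes called and 17.2% called lower. After median-ratio scaling 5 were called (17.2%, against 33.0% of all genes), 1 higher and 4 lower (13.8% lower, against 14.7%). For Mrpl genes both scalings gave 9 of 48 (18.8%), all lower. Quantile normalization gave 6 lower Mrpl calls (12.5%, against 17.5% of all genes) and 2 higher Mrps calls (6.90%, against 15.4%). The Mrpl count was 2 without Bnc1tr/tr replicate 3 or WT replicate 1 and 1 without WT replicate 2. The Mrps count was 0 without any single Bnc1tr/tr library and 1 without WT replicate 1 or 2. With any of these libraries left out, 22.5% to 28.1% of all genes were called. The medians were -0.09 for Mrpl and -0.11 for Mrps. They were -0.18 and -0.24 without Bnc1tr/tr replicate 2, and -0.08 and -0.03, in the opposite order, with the length correction. With members placed by structure, 4 of 50 large-subunit genes and 2 of 26 small-subunit genes were called, with medians of -0.09 in both groups. Genes of proteins with a bacterial counterpart gave 2 calls among 45, with a median of -0.08, and genes of mitochondria-specific proteins 4 among 29, with a median of -0.13. The share called over all genes was 31.8%, and no difference between these classes was tested.

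The summed level of each subunit was also computed per library. Mrpl genes summed to 6346, 6466 and 7597 FPKM in WT replicates 1 to 3 and to 5375, 6955 and 5875 FPKM in Bnc1tr/tr. Mrps genes summed to 4729, 4943 and 6125 FPKM in WT and to 3722, 4969.7 and 4436 FPKM in Bnc1tr/tr. WT replicate 3 was the highest library for both subunits, Bnc1tr/tr replicate 1 the lowest, and the groups overlapped. The sums followed the library: Bnc1tr/tr replicate 2 was the highest of its group for 55 of the 78 members, Bnc1tr/tr replicate 1 the lowest for 47, and WT replicate 3 the highest for 45. Members made up 1.52% ± 0.156 of the summed FPKM of a library in Bnc1tr/tr and 1.74% ± 0.134 in WT (SD, n = 3 each). Medians per library differed from the sums. The median Mrpl gene was at 86.6, 88.4 and 92.7 FPKM in WT and 59.9, 68.6 and 60.8 FPKM in Bnc1tr/tr, without overlap. The median Mrps gene was at 86.1, 91.9 and 109.6 FPKM in WT and 76.8, 98.1 and 81.2 FPKM in Bnc1tr/tr, with overlap. Neither difference was tested.

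The ratio of small to large subunit transcripts was 0.745, 0.764 and 0.806 in WT and 0.692, 0.715 and 0.755 in Bnc1tr/tr. Means were 0.772 ± 0.0313 and 0.721 ± 0.0317 (SD, n = 3 each), the groups overlapped in the range from 0.745 to 0.755, and the difference was -0.0513. It was -0.0381 with members placed by structure. Without the most abundant member of each subunit, *Mrps33* and *Mrpl48*, it was -0.0143, so most of the difference rested on these genes. Leaving out WT replicate 3 reduced it to -0.0342.

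**Figure D3:**
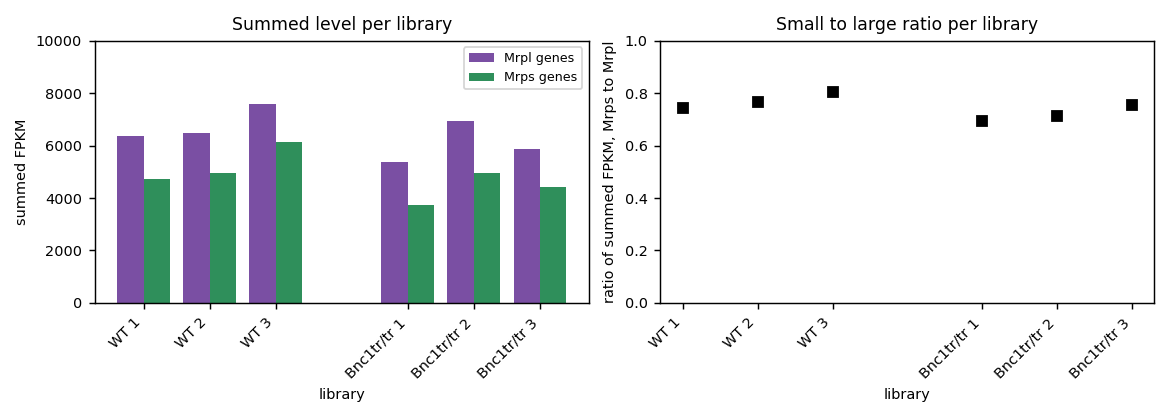
Summed FPKM of the 49 Mrpl and 29 Mrps genes in each library (left, bars from 0) and the ratio of the Mrps to the Mrpl sum in each library (right, axis from 0). Bars differ as much within a genotype as between genotypes, and the ratios lie between 0.692 and 0.806 with the groups overlapping.

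*Mrpl39* showed the largest change of all members. Its protein is specific to mitochondria and lies in the large subunit. It measured 87.3, 74.8 and 72.8 FPKM in WT replicates 1 to 3 and 13.4, 33.6 and 21.4 FPKM in Bnc1tr/tr. Every Bnc1tr/tr library was below every WT library by a wide gap. The means of 78.3 ± 7.90 and 22.8 ± 10.2 FPKM (SD, n = 3 each) differed 3.44-fold, a log2 fold change of -1.82 (SE 0.29, limma adjusted p = 0.0016), or -1.97 relative to the median of all genes. Of the 6 called members it was the only one that kept its call under all 16 alternative settings tried, with log2 fold changes from -2.14 to -1.50 and adjusted p from 0.00081 to 0.013. Its gene lies on chromosome 16, and 1.68% of its words were shared with other genes.

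*Mrpl9*, a large-subunit protein with a bacterial counterpart, was at 115, 114 and 63.9 FPKM in WT and 59.9, 39.0 and 28.4 FPKM in Bnc1tr/tr. The groups did not overlap, but WT replicate 3 came within a few FPKM of Bnc1tr/tr replicate 1. The log2 fold change was -1.20 (SE 0.31, limma adjusted p = 0.018), a 2.30-fold lower mean. The call ended without Bnc1tr/tr replicate 2 (adjusted p = 0.060) or 3 (0.065), without WT replicate 1 (0.052) or 2 (0.066), and with no filter on low values (0.062).

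*Mrpl40*, a mitochondria-specific protein of the large subunit, was at 151, 167 and 173 FPKM in WT and 84.1, 113 and 109 FPKM in Bnc1tr/tr. All Bnc1tr/tr libraries were below all WT libraries, with a 1.60-fold lower mean and a log2 fold change of -0.69 (SE 0.18, limma adjusted p = 0.017). The call ended without Bnc1tr/tr replicate 1 (adjusted p = 0.062) and without WT replicate 2 (0.067). It held under every scaling tried.

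The 3 members that rose lost their calls under 7 or 8 of the 16 alternatives, against 0 to 5 for those that fell. *Mrpl36*, a short large-subunit protein with a bacterial counterpart, was at 23.5, 23.7 and 30.9 FPKM in WT and 35.9, 47.5 and 43.4 FPKM in Bnc1tr/tr. The groups did not overlap, the mean was 1.62-fold higher, and the log2 fold change was 0.68 (SE 0.19, limma adjusted p = 0.023). Relative to the median of all genes it was 0.53. The call ended under all 3 scalings, at 0.41 to 0.52 with adjusted p from 0.080 to 0.17, without Bnc1tr/tr replicate 2 or 3 (adjusted p = 0.080 and 0.069) and without WT replicate 1 or 2 (0.067 and 0.092).

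*Mrps31*, a small-subunit protein specific to mitochondria, was at 94.2, 104 and 163 FPKM in WT and 186, 227 and 200.4 FPKM in Bnc1tr/tr. WT replicate 3 stood nearer to the Bnc1tr/tr libraries than to the other two WT libraries, and the groups did not overlap. The mean was 1.70-fold higher and the log2 fold change 0.80 (SE 0.23, limma adjusted p = 0.026). The call ended without any one library except WT replicate 3 (adjusted p from 0.051 to 0.096), without the filter (0.056), and after upper-quartile (0.15) or median-ratio scaling (0.11).

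*Mrps26*, also specific to mitochondria and part of the small subunit, was at 20.0, 16.1 and 6.76 FPKM in WT and 27.5, 28.6 and 32.6 FPKM in Bnc1tr/tr. The Bnc1tr/tr libraries were close together and WT replicate 3 was far below the rest. The mean was 2.07-fold higher, with a log2 fold change of 1.11 (SE 0.33, limma adjusted p = 0.031). The call ended without any single Bnc1tr/tr library (adjusted p = 0.071, 0.080 and 0.093), and with a pseudocount of 0.1, no filter, upper-quartile scaling or a length correction (adjusted p from 0.054 to 0.092).

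**Figure D4:**
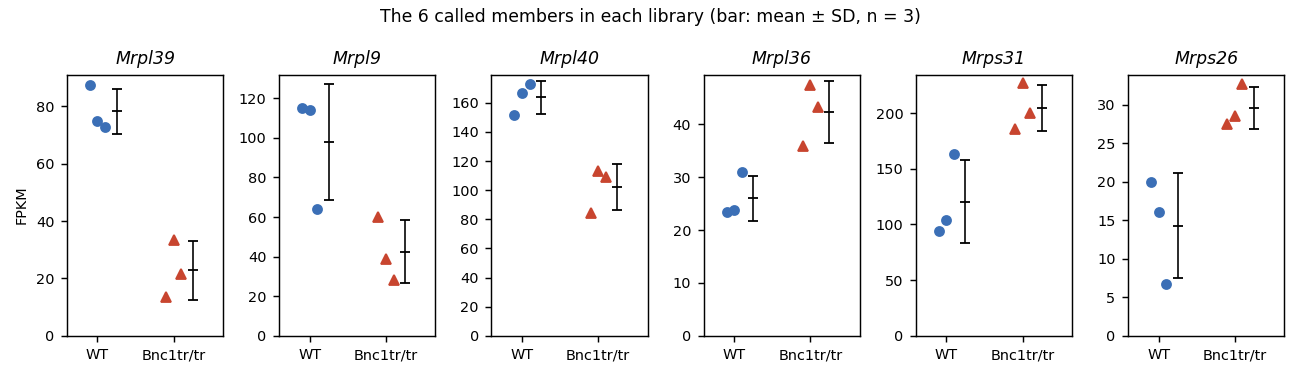
FPKM of the 6 called members in each WT library (circles) and Bnc1tr/tr library (triangles), with the mean and SD of 3 libraries as bars, on linear axes from 0. The groups are apart in every panel, most clearly for *Mrpl39*, and WT replicate 3 is the WT library nearest to the Bnc1tr/tr libraries for *Mrpl39*, *Mrpl9*, *Mrpl36* and *Mrps31* and the farthest from them for *Mrpl40* and *Mrps26*.

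Promoter windows of these 6 genes are shown because they are the members called on the deposited values. Each run covers 120 bases before to 30 bases after a RefSeq transcript start, on the GRCm38.p6 build and on the strand of the gene, and matched letters are in capitals. The motifs searched, on both strands, were the core of the NRF1 site (TGCGCA, its own reverse complement), of ETS factors (CCGGAAG) and of YY1 (AAGATGG), the CCAAT box (CCAAT), the GC box (GGGCGG) and a TATA box (TATAAA), and matches may share bases with each other. NRF1, the ETS factor GABP and YY1 are known regulators of nuclear genes for mitochondrial proteins.
Mrpl39, chr16:84735215-84735364, minus strand: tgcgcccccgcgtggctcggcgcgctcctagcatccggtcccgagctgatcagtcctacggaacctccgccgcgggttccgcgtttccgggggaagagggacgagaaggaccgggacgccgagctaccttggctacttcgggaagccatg
Mrpl9, chr3:94443216-94443365, plus strand: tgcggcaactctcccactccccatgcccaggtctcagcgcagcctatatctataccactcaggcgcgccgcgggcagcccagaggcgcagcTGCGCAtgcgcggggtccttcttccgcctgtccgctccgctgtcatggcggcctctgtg
Mrpl40, chr16:18876608-18876757, minus strand: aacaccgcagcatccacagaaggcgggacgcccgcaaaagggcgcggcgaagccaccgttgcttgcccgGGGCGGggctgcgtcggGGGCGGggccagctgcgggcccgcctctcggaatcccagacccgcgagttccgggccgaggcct
Mrpl36, chr13:73330889-73331038, plus strand: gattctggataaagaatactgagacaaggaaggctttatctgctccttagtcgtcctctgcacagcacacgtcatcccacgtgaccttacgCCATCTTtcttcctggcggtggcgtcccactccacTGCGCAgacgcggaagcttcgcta
Mrps31, chr8:22411220-22411369, plus strand: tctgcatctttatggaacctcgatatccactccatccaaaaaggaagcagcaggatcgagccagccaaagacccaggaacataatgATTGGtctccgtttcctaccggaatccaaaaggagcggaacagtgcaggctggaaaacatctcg
Mrps26, chr2:130563637-130563786, plus strand: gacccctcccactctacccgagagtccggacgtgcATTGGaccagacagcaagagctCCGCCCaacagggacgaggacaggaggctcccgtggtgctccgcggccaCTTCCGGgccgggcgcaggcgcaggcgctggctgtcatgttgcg

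No motif was common to the 3 genes that fell or to the 3 that rose. *Mrpl39*, with the largest change, held none of the 6 motifs in this window, *Mrpl9* held 1 NRF1 core, and *Mrpl40* held 2 GC boxes. The windows of *Mrpl39*, *Mrpl40* and *Mrpl36* lie wholly inside the GENCODE gene, downstream of its outermost start. The sequence at that start was not searched. *Mrpl36* held a YY1 core on the opposite strand and an NRF1 core, *Mrps31* a CCAAT box on the opposite strand, and *Mrps26* a CCAAT box, a GC box and an ETS core, all on the opposite strand.

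Across the group, 69 of the 78 members had a promoter in the RefSeq table. The NRF1 core was in 15 of them (21.7%), against 5.48% of all 27025 promoters in the same window, and was found in 10 of 43 Mrpl and 5 of 26 Mrps genes. The ETS core was in 20 (29.0%, against 6.89%) and the YY1 core in 8 (11.6%, against 3.25%). The CCAAT box was in 26.1% of members and 24.7% of all promoters, and the GC box in 37.7% and 29.5%. A TATA box was in 1 member, *Mrpl16* (1.45%, against 7.55%). Member windows were richer in G and C, with a median of 61.3% against 54.7%, and the part of base composition in the motif shares was not tested. These are matches of letters and say nothing of which factor binds.

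Many members begin close to another gene. A protein-coding gene on the opposite strand started within 1000 bases for 33 of the 78 (42.3%), against 10.9% of all protein-coding genes. The 78 genes were spread over 17 chromosomes, with 11 on chromosome 11 and 8 on chromosome 17. *Mrpl46* and *Mrps11*, whose products belong to different subunits, start 412 bases apart on chromosome 7. *Mrpl46* was at 132 ± 12.9 FPKM in WT and 126 ± 20.2 FPKM in Bnc1tr/tr, and *Mrps11* at 41.96 ± 4.53 and 39.8 ± 0.747 FPKM. Both had a log2 fold change of -0.07 (SE 0.18 and 0.16).

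Neighbours of called members, and others with a mitochondrial role, were looked up in the same fit. Distances between starts use the outermost GENCODE start of each gene. By that start, at base 73328513, *Mrpl36* begins 29 bases from *Ndufs6*, a subunit of complex I. The *Mrpl36* window printed above, from base 73330889 to 73331038, lies downstream and does not cover that start. *Ndufs6* was at 146 ± 58.3 FPKM in WT and 124 ± 23.4 FPKM in Bnc1tr/tr (log2 fold change -0.18, SE 0.28, limma adjusted p = 0.67). *Mrpl9* starts 597 bases from *Oaz3*, an antizyme gene known from the testis, which rose from 4.64 ± 0.810 to 8.15 ± 1.46 FPKM (log2 fold change 0.70, SE 0.19, limma adjusted p = 0.024), and the exons of other genes covered 5.81% of the exonic bases of *Mrpl9*. *Mrpl40* starts 175 bases from *Hira*, a histone chaperone gene, which was at 0.623 ± 0.0751 FPKM in WT and 0.600 ± 0.259 FPKM in Bnc1tr/tr and was too low for the test. *Mrpl43* starts 779 bases from *Twnk*, the helicase of mitochondrial DNA, named here after its values were seen. *Twnk* was at 9.96, 10.1 and 9.78 FPKM in WT and 1.51, 3.22 and 2.49 FPKM in Bnc1tr/tr, a log2 fold change of -1.72 (SE 0.21, limma adjusted p = 0.00035). *Mrpl43* itself was at 14.0 ± 3.71 and 11.0 ± 1.87 FPKM with overlapping groups (log2 fold change -0.31, SE 0.21, adjusted p = 0.31), and other exons covered 33.4% of its exonic bases.

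Members with a distinct role in the ribosome were also examined, and none of the following passed the test. *Mrpl12*, a stalk protein that contacts translation factors, was at 201 ± 37.1 FPKM in WT and 219 ± 21.9 FPKM in Bnc1tr/tr (log2 fold change 0.14, SE 0.19, limma adjusted p = 0.63). *Mrps12*, at the decoding centre, was at 86.97 ± 2.63 and 81.8 ± 16.1 FPKM (log2 fold change -0.11, SE 0.19). *Mrpl44*, a mitochondria-specific large-subunit protein, was at 21.3 ± 0.792 and 25.4 ± 2.93 FPKM (log2 fold change 0.24, SE 0.16, adjusted p = 0.30).

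*Mrpl58*, a peptidyl-tRNA hydrolase built into the large subunit, came nearest to a call among the rest with a fold change over 0.5. It was at 214, 237 and 287 FPKM in WT and 137, 201 and 164 FPKM in Bnc1tr/tr. The groups did not overlap, and the log2 fold change was -0.56 (SE 0.20, limma adjusted p = 0.062). It was called lower after upper-quartile or median-ratio scaling, without Bnc1tr/tr replicate 2, with the block and with trend and robust variances. The other 3 members over 0.5 that were not called were *Mrps22*, *Mrpl42* and *Mrps18c*. *Mrpl42* was at 227, 259 and 474 FPKM in WT and 148, 245 and 253 FPKM in Bnc1tr/tr (log2 fold change -0.53, SE 0.31, adjusted p = 0.23), and WT replicate 3 alone lay far above the others.

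The 3 genes of the S18 family encode proteins at different places in the ribosome. *Mrps18c*, the form with a bacterial counterpart, was at 425 ± 121 FPKM in WT and 293 ± 43.0 FPKM in Bnc1tr/tr (log2 fold change -0.51, SE 0.23, limma adjusted p = 0.13). *Mrps18b*, of the small subunit, was at 209 ± 10.3 and 168 ± 24.6 FPKM (log2 fold change -0.33, SE 0.17, adjusted p = 0.18) and its groups did not overlap. *Mrps18a*, of the large subunit, was at 196 ± 21.1 and 157 ± 22.3 FPKM (log2 fold change -0.33, SE 0.18, adjusted p = 0.19) with overlapping groups. All 3 values lay below 0 and none passed the test, whereas after upper-quartile scaling all 3 were called lower, as was *Mrps18b* after median-ratio scaling. *Mrps30*, the other protein with a small-subunit symbol in the large subunit, was at 31.7 ± 11.0 and 33.3 ± 4.17 FPKM (log2 fold change 0.12, SE 0.26).

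Genes that work with the mitochondrial ribosome also gave few calls on the deposited scale. Over lists of its remaining proteins, its assembly factors, translation factors, aminoacyl-tRNA synthetases and the transcription machinery of mitochondrial DNA, 5 of 55 tested genes (9.09%) were called, 2 higher and 3 lower, against 31.8% of all genes. The count was 13 (23.6%, against 34.4%) after upper-quartile scaling, 12 (21.8%, against 33.0%) after median-ratio scaling and 15 (27.3%, against 32.9%) after quantile normalization, with 1 of the calls higher in each. Without Bnc1tr/tr replicate 2 or 3 or WT replicate 2 the calls numbered 3. None of the 5 mitoribosomal proteins with other symbols was called by limma, and 0 had an unadjusted p under 0.05. Among them *Dap3*, a small-subunit GTP-binding protein, was at 181, 195 and 193 FPKM in Bnc1tr/tr and 209.8, 230.1 and 147 FPKM in WT. Of 15 translation factors 0 were called, with 2 at an unadjusted p under 0.05, and the count was 1 without WT replicate 3 and 3, 3 and 4 after upper-quartile, median-ratio and quantile scaling. The elongation factor *Tufm* was at 7.29 FPKM in WT and 8.06 FPKM in Bnc1tr/tr.

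Of 20 assembly factors tested only *Ngrn* was called. *Ngrn*, which takes part in handling the large ribosomal RNA, was at 38.8, 34.1 and 32.1 FPKM in WT and 25.1, 22.5 and 17.0 FPKM in Bnc1tr/tr, with no overlap and a log2 fold change of -0.69 (SE 0.19, limma adjusted p = 0.023). The count for this list was 0 without Bnc1tr/tr replicate 2 or 3 or WT replicate 2, 2 without WT replicate 3, 6 after upper-quartile or median-ratio scaling and 5 after quantile normalization. Those 3 scalings called 34.4%, 33.0% and 32.9% of all genes, and leaving out those libraries called 22.5% to 33.8%.

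Of the mitochondrial aminoacyl-tRNA synthetases 11 of 20 were abundant enough to test. The 2 that were called (18.2%, against 31.8% of all genes) went in opposite directions. *Rars2*, which charges the tRNA for arginine, was at 58.8, 48.8 and 57.1 FPKM in WT and 21.8, 28.2 and 21.9 FPKM in Bnc1tr/tr, a log2 fold change of -1.17 (SE 0.18, limma adjusted p = 0.0012). *Tars2*, which charges the tRNA for threonine, was at 3.70, 4.05 and 3.16 FPKM in WT and 13.4, 11.1 and 9.85 FPKM in Bnc1tr/tr, a log2 fold change of 1.42 (SE 0.18, limma adjusted p = 0.00041). In both genes the groups were well apart. The count for this list was 2 under every setting but quantile normalization, which gave 5, and leaving out WT replicate 3, which gave 3.

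Of the 4 genes for mitochondrial DNA transcription, *Polrmt* and *Tfb2m* were called, against 31.8% of all genes, and a share of only 4 genes says little. *Polrmt*, the RNA polymerase of mitochondria, fell from 13.97, 9.67 and 8.29 FPKM in WT to 4.26, 5.19 and 2.30 FPKM in Bnc1tr/tr (log2 fold change -1.26, SE 0.27, limma adjusted p = 0.0077). *Tfb2m*, which opens the promoter with it, was at 14.0, 10.8 and 10.6 FPKM in WT and 18.5, 16.4 and 16.9 FPKM in Bnc1tr/tr (log2 fold change 0.52, SE 0.17, adjusted p = 0.045). The count for this list was 1 in place of 2 without any single library other than WT replicate 1, with a pseudocount of 0.1, and under each of the 3 scalings. *Tfam*, which packages mitochondrial DNA, was at 6.23 FPKM in WT and 5.59 FPKM in Bnc1tr/tr.

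The cytosolic ribosome and the respiratory chain served as comparison. Of 80 cytosolic ribosomal protein genes 6 (7.50%) were called, 4 higher and 2 lower, with a median log2 fold change of -0.03. The largest called changes there were those of *Rpl10l*, a paralog of *Rpl10*, from 6.93 ± 0.580 FPKM in WT to 18.0 ± 6.30 FPKM in Bnc1tr/tr (log2 fold change 1.22, limma adjusted p = 0.0041), and of *Rpl10*, from 268 ± 33.7 to 449.9 ± 70.4 FPKM (0.74, adjusted p = 0.015). Reads of such paralogs may have been shared between them. Of 80 nuclear genes for respiratory chain subunits 11 (13.8%) were called, 4 higher and 7 lower, with a median of -0.11, the same as for the mitoribosomal genes to 2 decimals. Its largest changes were those of the cytochrome c oxidase isoforms *Cox7a1*, from 1.85 ± 0.638 to 42.5 ± 1.99 FPKM (log2 fold change 3.95, limma adjusted p = 2.8e-06), and *Cox8c*, from 4.57 ± 0.626 to 45.98 ± 5.70 FPKM (3.08, adjusted p = 4.5e-06). No mitoribosomal protein gene changed by as much. All 3 groups thus had a smaller share of calls than the 31.8% of all genes, and no difference between them was tested. After upper-quartile scaling the cytosolic count was 15 (18.8%) and the respiratory count 19 (23.8%), against 34.4% of all genes, and after median-ratio scaling they were 11 (13.8%) and 15 (18.8%), against 33.0%. With a pseudocount of 0.1 they fell to 2 and 6, and with no filter the respiratory count was 7. The cytosolic count was 2 without Bnc1tr/tr replicate 1 or 3 or WT replicate 1 or 2. The respiratory count was 3 and 2 without Bnc1tr/tr replicates 1 and 3, and 6, 3 and 6 without WT replicates 1, 2 and 3. With any of these libraries left out, 22.5% to 33.8% of all genes were called.

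**Figure D5:**
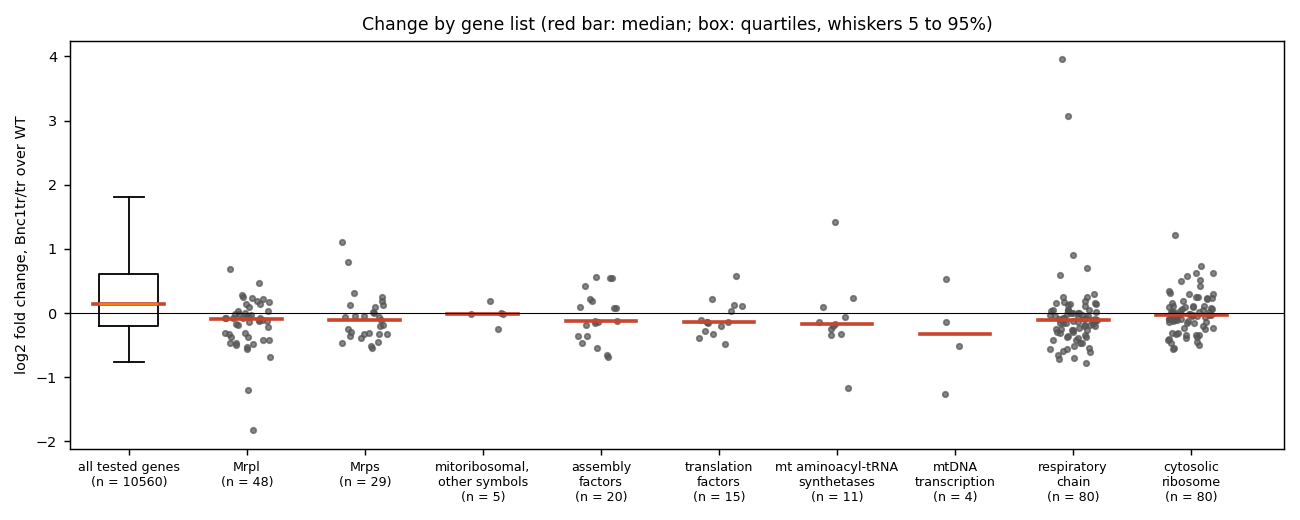
Log2 fold change (Bnc1tr/tr over WT, of FPKM + 1) of each tested gene in the Mrpl and Mrps groups and in 7 related gene lists (points, spread sideways for clarity), with the list medians as bars, beside a box of all 10560 tested genes (quartiles, whiskers from the 5th to the 95th percentile). The quartiles of the Mrpl and Mrps genes (-0.37 to 0.03 and -0.33 to 0.10) span a narrower range than the box of all genes (-0.20 to 0.61), with medians of -0.09 and -0.11 and single members far outside, and the lists for translation have a few isolated points such as *Tars2*, *Rars2* and *Polrmt*.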

How the data were processed

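Libraries of germinal vesicle oocytes were made by modified Smart-seq2, with a single oocyte per cDNA, oligo(dT) priming, template switching, PCR amplification and a transposase-based Illumina library. The authors deposited 1 table of FPKM values per library, rounded to 2 decimals, with NCBI Gene IDs and symbols. HISAT2 2.0.4, Bowtie2 2.2.5, RSEM 1.2.12 and the GRCm38.p6 build are named in the submitters' processing notes with no role, and the annotation, gene filter and strand setting were not given in the sources used here. Since FPKM is a share of the fragments in a library, abundant transcripts move the values of all others. Depth was inferred from the spacing of low FPKM values and entered no test. PCR copies were not told apart by molecular identifiers, so detection limits cover counting error only.

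Groups followed the genotype in the labels. Date-like symbols (25) were replaced through the Gene ID. Genes averaging 1 FPKM or more over all 6 samples were compared with limma 3.58.1 (R 4.3.3) on log2(FPKM + 1), a scale that understates changes of low genes. P-values were adjusted by Benjamini-Hochberg over all 10560 tested genes, and calls required an adjusted p under 0.05 together with a log2 fold change beyond 0.5 either way, thresholds the study also used for its oocytes. The fit was tested on simulated data. No set was tested. Members, gene lists, motifs and marker lists were chosen with earlier results of these data known. Members named with full statistics were all called ones, the 3 Mrpl and 3 Mrps genes highest in WT and a list of members with a distinct role, and of the other lists the 2 largest called changes; further members were named for position or a fold change over 0.5.

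Gene positions, transcript lengths and shared words came from GENCODE M21 and promoters from RefSeq. Printed promoter windows start from a RefSeq transcript and need not coincide with the outermost GENCODE start. Alternatives were a pseudocount of 0.1, no filter, a minimum mean of 5 FPKM, 3 scalings, the replicate number as a block, limma with trend and robust variances, adjusted p alone, leaving out each library and, chosen after seeing the data, a length correction with and without the block. Each was also applied to the lists for comparison. Figures were drawn with matplotlib 3.10.9.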

Additional observations from a re-analysis of the deposited data

How the results depend on the processing

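Over 16 alternatives, *Bnc1* and *Mrpl39* kept direction and call, and *Mrpl40* lost its call in 2. Of 335 values over 21 named members, 274 kept direction and side of the threshold, 29 lost a call, 11 gained one and 21 changed sign. The 6 member calls became 3 with no filter, 19 after upper-quartile and 14 after median-ratio scaling, and 2 to 8 with a library left out. Higher calls (3) became 1, 0 and 1 under those settings and 0 to 4 with a library left out. Lower calls (3) became 19 and 13 under those scalings, 6 after quantile normalization, and 1 to 4 with a library left out. Mrpl calls (4) became 9 under both scalings and 1 to 6 with a library left out. Mrps calls (2) became 1 with a pseudocount of 0.1 or the length correction, 0 with no filter, 10 and 5 under both scalings, and 0 to 2 with a library left out. Over all genes the share called was 31.8% on deposited values. It was 34.4%, 33.0% and 32.9% under upper-quartile, median-ratio and quantile scaling and 19.4% with no filter. With a pseudocount of 0.1 it was 28.6%, with the length correction 31.4%, and with a library left out 22.5% to 33.8%. The 5 calls in related lists became 13, 12 and 15 under upper-quartile, median-ratio and quantile scaling and 3 to 7 with a library left out. The 6 cytosolic and 11 respiratory calls became 15 and 19, and 11 and 15, under upper-quartile and median-ratio scaling, 2 and 6 with a pseudocount of 0.1, and 2 to 7 and 2 to 8 with a library left out. The subunit ratio difference of -0.0513 became -0.0143 without the most abundant member of each subunit and -0.0685 to -0.0342 with a library left out. Values that changed sign were all uncalled. *Mrpl48* gave 0.0803 after quantile normalization, 0.105 without Bnc1tr/tr replicate 1, 0.0601 without WT replicate 3 (-0.164 to 0.105 with a library left out), and 0.0485 with the length correction, with or without the block. *Mrpl22* gave 0.0512, 0.0822 and 0.15 in the first 3 of these, 0.0102 without Bnc1tr/tr replicate 3 (-0.136 to 0.150 with a library left out) and 0.0658 with either length correction. *Mrpl12* gave -0.138 and -0.0833 after upper-quartile and median-ratio scaling and -0.0212 to 0.244 with a library left out, the sign changing without WT replicate 3. *Mrps30* gave -0.148, -0.0945 and -0.0416 under the 3 scalings and -0.160 to 0.351 with a library left out, the sign changing without WT replicate 3. *Mrpl44* gave -0.0280 after upper-quartile scaling, *Mrps12* -0.244 to 0.0395 with a library left out, above 0 without Bnc1tr/tr replicate 3, and *Mrps34* -0.252 after quantile normalization. The cause of these changes was not tested.

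The labels do not say whether same-numbered libraries share anything beyond the number. Across genes, the departures of same-numbered libraries from their group mean had correlations of 0.28, -0.03 and 0.12. Over the members these were 0.56, -0.26 and 0.40. Not every Bnc1tr/tr library correlated best with its own number. With the replicate number as a block 3 members were higher and 4 lower, a total of 7, since *Mrpl58* gained a call (adjusted p = 0.046), and *Bnc1* stayed at -0.89.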

Other observations

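Members differed in how tightly their level was held among libraries. The median coefficient of variation over the tested members was 15.2% in WT and 14.2% in Bnc1tr/tr. *Mrps23*, a mitochondria-specific protein of the small subunit, was at 76.8, 75.4 and 76.0 FPKM in Bnc1tr/tr and 78.6, 81.4 and 69.7 FPKM in WT, a log2 fold change of -0.01 (SE 0.15). *Mrpl45*, a large-subunit protein that faces the inner membrane, was at 47.6, 49.5 and 49.2 FPKM in WT and 44.2, 37.4 and 44.4 FPKM in Bnc1tr/tr, without overlap and without a call (log2 fold change -0.21, SE 0.16, limma adjusted p = 0.33). *Mrpl18*, a protein of the large subunit, was higher in every Bnc1tr/tr library than in every WT library at 429 ± 14.3 against 404 ± 12.8 FPKM (SD, n = 3 each), yet its log2 fold change was 0.09 (SE 0.15, adjusted p = 0.70). *Mrpl10*, of the stalk base, spread more, at 30.8, 21.6 and 12.0 FPKM in WT and 25.4, 22.4 and 19.6 FPKM in Bnc1tr/tr. These members were chosen after their values were seen.

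WT replicate 3 was the lowest library for *Mrpl4* (86.6, 70.9 and 40.2 FPKM in WT replicates 1 to 3) and *Mrps30* (42.3, 32.6 and 20.3 FPKM), although it was the highest of the WT libraries for 45 of the 78 members. Both genes overlapped between the genotypes. With 3 libraries a group, no member was tested for a library that stands apart.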
